A study of Caenorhabditis elegans with 6 samples.

Results

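Regulators of germ cell fate, embryonic polarity and sex determination carried 7 of the 636 read clusters that the authors listed as uniquely annotated and significant in a pulldown of ADR-1. A read cluster is a short stretch of a transcript on which reads pile up. All rows of that list whose gene name was gld-1, lin-41, par-5 or tra-1 were taken, which gave 3 clusters for gld-1, 2 for tra-1 and 1 each for lin-41 and par-5. The longer list of 736 reproducible clusters held no further cluster annotated to these 4 genes.

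ADR-1 is a double-stranded RNA binding protein of the ADAR family of Caenorhabditis elegans that does not itself deaminate adenosine and affects editing by its partner ADR-2. The data comprised 3 CLIP libraries and 3 input libraries from the strain HAH59, whose ADR-1 carries a 3xFLAG tag. Every library came from whole animals of mixed stages, grown at 20 °C and crosslinked with ultraviolet light at 3 J/cm2; the inputs were 2% of the same lysates. No untagged or mock pulldown is used here, so RNA in contact with ADR-1 and RNA held by the beads cannot be told apart, and in whole animals a read cannot be assigned to the germ line. In bulk samples such as these, fewer cells of a type and less RNA per cell cannot be told apart either.

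The 4 genes act at different points of germ line and sexual development. gld-1 encodes a KH domain RNA-binding protein that represses translation of many germline mRNAs and is needed for oocyte development, and one of its known targets is the sex determination mRNA tra-2. lin-41 encodes a TRIM-NHL RNA regulator that is repressed by the let-7 microRNA in the soma and controls oocyte growth and maturation. par-5 encodes a 14-3-3 protein needed for anterior-posterior polarity of the one-cell embryo. tra-1 encodes a GLI-family zinc finger transcription factor at the end of the sex determination pathway, where it promotes hermaphrodite fate over male fate.

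The library totals behind the deposited statistics, recovered from the deposited chi-square scores, were 5776707, 5773638 and 5775984 reads for CLIP replicates 1, 2 and 3. Those of the inputs were 4158973, 2475508 and 4248714 reads. The 3 CLIP totals were equal within the standard error of their recovery, so CLIP was in effect scaled by 1 constant. It is not known if each equals the real depth of its library, which bears on every scaled value. The log2 ratio of CLIP over input was scaled for these totals, with 1 read added to each count. Its median over the 636 clusters was 4.15, 1.44 and 3.55 in replicates 1, 2 and 3. The ratio takes in both libraries of a replicate, and the smallest input total was that of replicate 2. Replicate 2 gave the lowest of the 3 ratios in 616 of the 636 clusters. The file captions call the replicates biological, while the labels name no separate cultures. The edgeR and DESeq2 p-values therefore reflect variation among these libraries, part of which may be technical. The deposited p-values set 1 CLIP library against 1 input library within a replicate and cover counting error only.

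Of the 7 clusters, 5 were annotated to the 3' UTR, at least 1 in each gene. The authors' deposited table placed 100% of each of these 5 in the 3' UTR of its gene. The other 2, both in gld-1, carry the location class "etc.", which the file caption uses for a site that spans 2 genic locations and which 12 of the 636 clusters carry. Against the RefSeq gene models of WBcel235, the par-5 cluster lay 149 to 246 bases and the lin-41 cluster 242 to 414 bases upstream of the annotated 3' end of the gene. The gld-1 3' UTR cluster lay 478 to 555 bases upstream of that end. The tra-1 clusters lay farther from it, at 717 to 854 and at 950 to 1061 bases, 96 bases apart. No second RefSeq gene overlapped any of the 7 clusters. The closest downstream gene was the pseudogene Y47D3A.5, 24 bases past the end of tra-1.

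**Figure D1:**
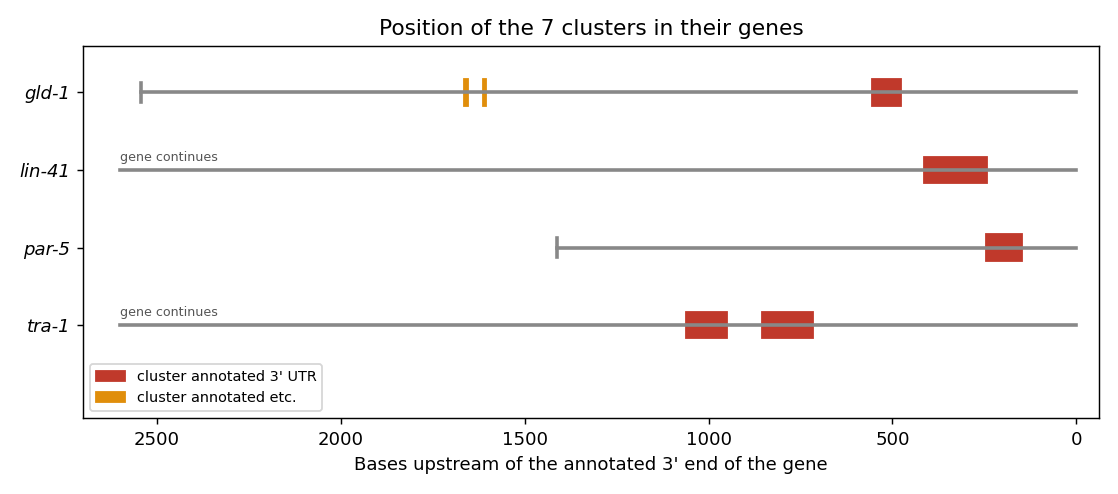
Position of the 7 clusters along their genes, in bases upstream of the annotated 3' end (right edge, 0), with 3' UTR clusters in red and those of class "etc." in orange. Lines are the RefSeq genes, cut off for lin-41 and tra-1; the tra-1 clusters sit 717 to 1061 bases from the end and the par-5 cluster 149 to 246 bases.

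The question for each cluster was whether its RNA was more abundant in the pulldown than in the lysate. In RPM, the reads per 1000000 of the library total, every CLIP library lay above every input library in 7 of the 7 clusters. The same held for 87.9% of the 636 clusters, so the count is not a result about these genes; the authors had chosen the whole list on these libraries for enrichment. In edgeR's quasi-likelihood test on the counts, fitted over all 736 reproducible clusters with the recovered totals as library sizes, the low-count filter kept 6 of the 7 member clusters. All 6 were higher in CLIP at a Benjamini-Hochberg adjusted p under 0.05, against 99% of the 389 listed clusters tested. The median fitted log2 fold of the 6 was 3.03, against 4.54 for the 389. These calls describe clusters already selected for enrichment and are not independent evidence of binding.

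**Figure D2:**
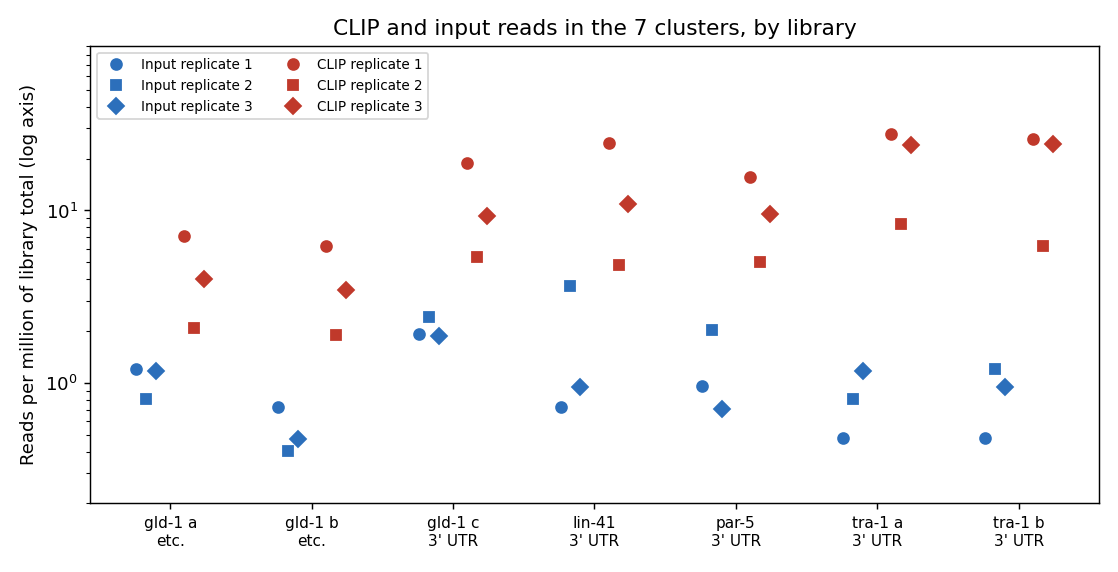
RPM of the library total (log axis) in each of the 3 input (blue) and 3 CLIP (red) libraries, with 1 marker shape per replicate; letters a, b and c run from 5' to 3' within a gene. CLIP points lie above all input points of the same cluster in 7 of 7 clusters, with the smallest gap on this log axis in lin-41, where input replicate 2 reached 3.64 and CLIP replicate 2 was 4.85.

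The sex determination gene tra-1 (WBGene00006604, chromosome III, minus strand) had the strongest clusters of the 4 genes. Its upstream cluster (11171840 to 11171951) held 161, 48 and 139 reads in CLIP replicates 1, 2 and 3, and the inputs 2, 2 and 5. Its downstream cluster (11171607 to 11171744) held 150, 36 and 140 reads in CLIP and 2, 3 and 4 in the inputs. In both clusters CLIP replicates 1 and 3 were high and close to each other, and replicate 2 was the lowest CLIP library yet well above any input. The scaled ratios in the authors' deposited table, which add no read to the counts, were 5.86, 3.36 and 4.35 on the log2 scale for the upstream cluster. Those of the downstream cluster were 5.75, 2.36 and 4.69.

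With 1 read added to each count, the mean scaled log2 ratio was 4.06 ± 1.24 for the upstream tra-1 cluster and 3.85 ± 1.66 for the downstream one (SD, n = 3). They ranked 153rd and 184th of the 636 clusters by this mean, above the median of 2.99. edgeR gave log2 folds of 4.56 (SE 1.10, adjusted p = 5.17e-05) and 4.42 (SE 1.09, adjusted p = 7.49e-05), which ranked 188th and 216th of the 389 folds tested. tra-1 supplied the only member clusters with a deposited p-value under 0.05 in all 3 replicates, 2 of 7, where 46.1% of the 636 clusters reached this. The difference between the pair, upstream minus downstream, was 0.10, 0.82 and -0.27 in replicates 1, 2 and 3, a mean of 0.22 ± 0.56 (SD, n = 3). It was smaller than its own spread (exact sign-flip test, two-sided, p = 0.75, adjusted over 4 within-gene pairs to 1); with 3 replicates this test cannot go below 0.25.

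The lin-41 cluster (WBGene00003026, chromosome I, 9335042 to 9335214, minus strand) was the widest of the 7 and the one whose replicates differed most. It held 143, 28 and 63 reads in CLIP and 3, 9 and 4 in the inputs. The lowest CLIP library and the highest input library were those of the same replicate, number 2. The authors' deposited scaled log2 ratios were accordingly 5.10, 0.42 and 3.53. In replicate 2 the scaled fold was 1.33, with an exact 95% counting interval of 0.612 to 3.21, so a difference was not detectable at this depth. In replicate 1 the fold was 34.3, with an interval of 11.5 to 168.

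The mean scaled log2 ratio of lin-41 was 2.75 ± 2.23 (SD, n = 3), which fell to 1.78 without replicate 1 and became 3.97 without replicate 2. edgeR gave a log2 fold of 2.99 (SE 0.98, adjusted p = 0.00264). The adjusted p became 0.0507 without input replicate 1. The deposited p-value of replicate 2 was 0.565, whereas those of replicates 1 and 3 were 9.21e-30 and 2.68e-11.

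The polarity gene par-5 (WBGene00003920, chromosome IV, 11820655 to 11820752, minus strand) stood close to lin-41 in mean ratio, with less spread. Its cluster held 90, 29 and 55 reads in CLIP and 4, 5 and 3 in the inputs. CLIP replicate 1 was the highest library and replicate 2 the lowest of the CLIP libraries, while the inputs were nearly equal in reads; in RPM, input replicate 2 was the highest of them, at 2.02. The authors' deposited scaled log2 ratios were 4.02, 1.31 and 3.75. The mean with 1 read added was 2.73 ± 1.42 (SD, n = 3), rank 369 of 636. edgeR gave a log2 fold of 3.06 (SE 0.93, adjusted p = 0.00114), and the adjusted p lay between 2.04e-07 and 0.0369 when single libraries were left out. The scaled fold in replicate 2 was 2.49, with an exact 95% counting interval of 0.952 to 8.23. ftt-2, the other 14-3-3 gene of C. elegans, had no cluster in either list.

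gld-1 (WBGene00001595, chromosome I, plus strand) had the most clusters of the 4 genes and the lowest ratios by the mean over replicates, although in replicate 2 the lin-41 cluster was lower. Its 3' UTR cluster (7697667 to 7697744) held 109, 31 and 54 CLIP reads. The inputs held 8, 6 and 8 reads there, 22 in all and the highest input sum of the 7 clusters. The authors' deposited scaled log2 ratios were 3.29, 1.15 and 2.31. The mean with 1 read added was 2.09 ± 1.09 (SD, n = 3), rank 510 of 636. edgeR gave a log2 fold of 2.43 (SE 0.93, adjusted p = 0.00965), a fold below that of all but 5.14% of the tested clusters. The adjusted p became 0.0639 without input replicate 1 and 0.0638 without input replicate 3.

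The other gld-1 clusters were narrow and lay near each other in the 5' part of the gene, 1655 to 1666 and 1604 to 1613 bases upstream of its 3' end. From start to end they spanned 11 and 9 bases, against a median of 83 bases over the 636 clusters, and ranked 13th and 12th shortest. A gap of 42 bases separated them. The authors' deposited table placed 100% of each in a transcript outside introns and gave neither a 3' UTR share. The upstream one (7696556 to 7696567) held 41, 12 and 23 reads in CLIP and 5, 2 and 5 in the inputs. The downstream one (7696609 to 7696618) held 36, 11 and 20 reads in CLIP and 3, 1 and 2 in the inputs. CLIP reads were thus nearly equal between them in each replicate; whether the same reads fell into both was not tested.

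The mean scaled log2 ratio of the upstream narrow cluster was 1.59 ± 0.72, rank 596 of 636, and that of the downstream one 2.15 ± 0.71 (SD, n = 3), rank 492. The deposited p-values of the upstream cluster were 3.94e-05, 0.254 and 0.0149, and those of the downstream cluster 4.33e-06, 0.124 and 0.000952. edgeR gave the upstream cluster a log2 fold of 1.99 (SE 0.66, adjusted p = 0.00309). This call was lost without input replicate 1, 2 or 3, at adjusted p of 0.0863, 0.0975 and 0.0861, and with input counts of 1 taken as 0, at an adjusted p of 0.0556. The downstream cluster did not pass the filter; with no filter its edgeR log2 fold was 2.77 (SE 0.92, adjusted p = 0.00351).

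Within gld-1, the downstream narrow cluster exceeded the upstream one by 0.40, 0.47 and 0.81 on the scaled log2 scale in replicates 1, 2 and 3, a mean of 0.56 ± 0.22 (SD, n = 3). Its CLIP reads were the fewer in each replicate, so the difference rests on input counts of 3, 1 and 2 against 5, 2 and 5. With 5 reads added to each count, the mean ratios of the downstream and upstream narrow clusters came closer, at 1.16 and 0.94. The 3' UTR cluster exceeded the upstream narrow one by 0.80, 0.08 and 0.61 in replicates 1, 2 and 3, a mean of 0.50 ± 0.38 (SD, n = 3). Replicate 2 thus showed almost no difference for this pair. Both comparisons gave the smallest p that 3 replicates allow (exact sign-flip test, two-sided, p = 0.25, adjusted over 4 pairs to 0.5). The 3' UTR cluster minus the downstream narrow one gave -0.06 ± 0.41 (SD, n = 3), within the spread.

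**Figure D3:**
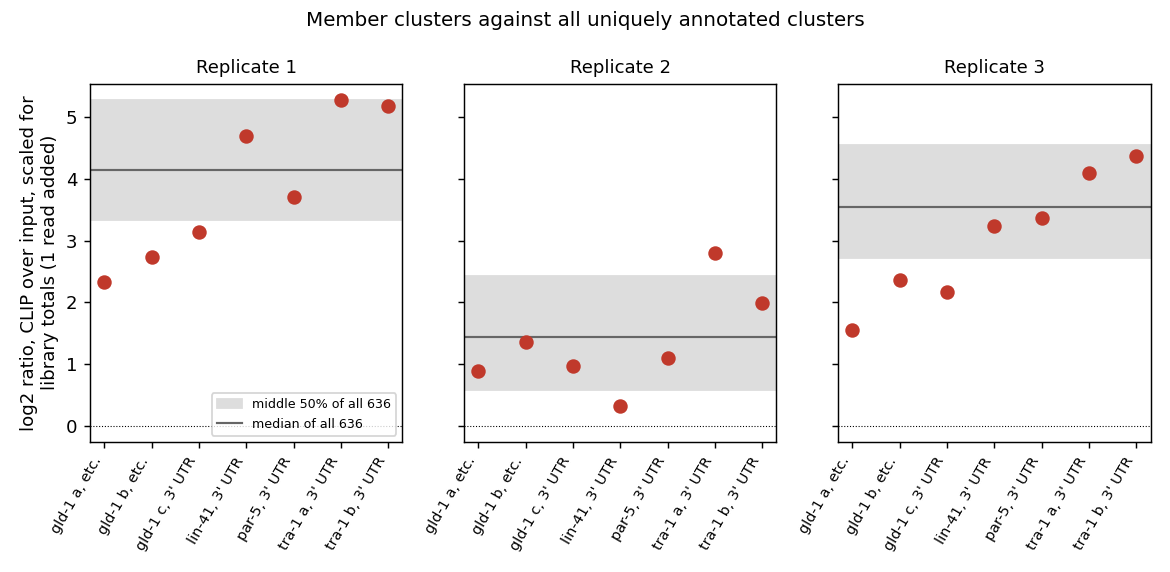
Scaled log2 ratio of CLIP over input (1 read added) for each of the 7 clusters in replicates 1, 2 and 3; the line is the median and the band the middle 50% of all 636 clusters. Both tra-1 clusters lie above the median in each replicate and the 3 gld-1 clusters below it, while lin-41 is above it in replicate 1 and below it in replicates 2 and 3.

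Both tra-1 clusters had a higher scaled log2 ratio than the other 5 clusters in each of the 3 replicates. The order of the rest changed with the replicate. In replicate 2 the lin-41 cluster was the lowest of the 7, at 0.31, below par-5 at 1.10 and the gld-1 clusters at 0.89, 1.36 and 0.97, whereas in replicate 1 it stood above all of these, at 4.70. In replicates 1 and 3 the 3 gld-1 clusters were the lowest. lin-41 and par-5, neighbours in mean ratio, differed by 0.02 ± 0.89 (SD, n = 3), far less than the spread. These differences between genes were not tested.

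The 7 clusters also held comparatively many input reads. Their input sums over 3 libraries ran from 6 to 22, with a median of 12, whereas the median over the 636 clusters was 4. In percentile rank of the input sum among the 636, the 7 clusters ran from 67.9 to 93.5. Of the 636 clusters, 241 had a single read in each of the 3 inputs, and 0 of the 7 did. Input counts of single libraries still ranged only from 1 to 9, so the inputs limit the precision of every ratio. CLIP sums had a median of 194 reads, against 132.5 over the list. Both tra-1 clusters, with input sums of 9, had mean ratios above the list median, and the other 5 clusters had mean ratios below it. The lowest input sum, 6 reads, was that of the downstream narrow gld-1 cluster, whose mean ratio was 2.15. The part of abundance in the lysate in the lower ratios of gld-1, lin-41 and par-5 was not tested.

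Each of the 7 clusters had its highest scaled ratio in replicate 1 and its lowest in replicate 2. Replicate 1 was highest in 508 of the 636 clusters, and replicate 2 lowest in 96.9%. In replicate 2, the deposited p-value was under 0.05 for 2 of the 7 clusters, both in tra-1, against 46.7% of the 636. The part of replicate 2 in the low mean ratios of gld-1, lin-41 and par-5 was not tested. Without CLIP replicate 2, all 7 clusters entered the edgeR test and were higher in CLIP, with log2 folds between 2.32 for the upstream narrow gld-1 cluster and 4.93 for the upstream tra-1 cluster and edgeR adjusted p of at most 9.71e-06. All 596 listed clusters tested were then called higher, 100%, with a median fold of 4.41, so the 7 calls are not a result about these genes.

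The folds depend on the scaling. The TMM setting replaced the recovered totals by each library's reads summed over all reproducible clusters. Its factors were also computed over clusters that were picked for enrichment. Together, the changed library sizes and the factors moved the median fold of the 389 tested clusters from 4.54 to 0.04. Relative to the typical listed cluster in that sense, both tra-1 clusters stood near 0, at 0.09 and -0.06. gld-1, lin-41 and par-5 were lower. The log2 folds were -2.56 and -2.08 for the gld-1 clusters tested, -1.48 for lin-41 and -1.33 for par-5. Their edgeR adjusted p were 0.00441, 0.00441, 0.0398 and 0.0395. Among the 389 listed clusters tested, 10.8% were called lower with TMM and 9.51% higher. With DESeq2 size factors the fold was also below 0 for gld-1, lin-41 and par-5, and DESeq2 called 2 of the 3 gld-1 clusters lower, with no adjusted p for the third. Of the 361 listed clusters with an adjusted p from DESeq2, 9.14% were called lower and 18.8% higher. The DESeq2 adjusted p was 0.138 for lin-41 and 0.257 for par-5.

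**Figure D4:**
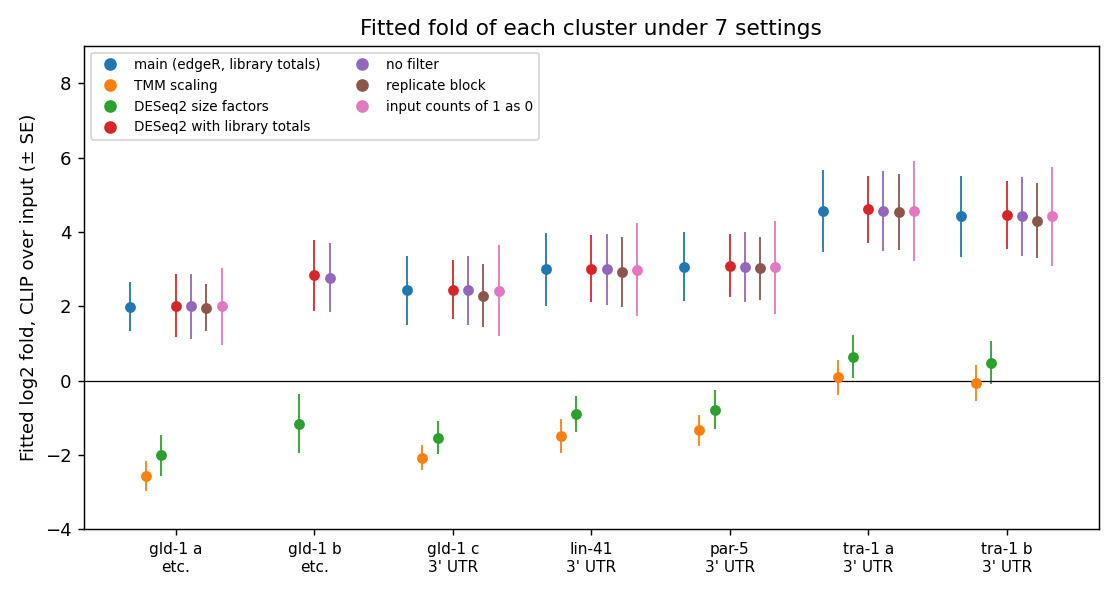
Fitted log2 fold of CLIP over input (points) with its standard error (bars) for each cluster under 7 settings; missing points are clusters outside the filter of that setting. The settings that scale by library totals keep every point above 0, from 1.97 to 4.61, whereas TMM and DESeq2 size factors, which centre the listed clusters near 0, place gld-1, lin-41 and par-5 below 0.

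Beyond these 4 genes, the pathways were read through a list of 95 genes of sex determination, germ cell fate and polarity, of which 94 matched a RefSeq symbol. A listed cluster was present in 8 of the 95 (8.42%). Of these, 4 were the genes above, chosen for having one, and 4 were others. The list was also drawn up with earlier results of these data known. Among all 19983 RefSeq protein-coding genes, 1.45% had a listed cluster. For both reasons the 2 shares cannot be compared, and no enrichment can be read from them. The others included nhl-2, a TRIM-NHL cofactor of microRNA silencing, and the polarity gene chin-1. Another was lin-42, the period homologue of the heterochronic pathway, which the list placed under germ cell fate. The clusters of these genes lay in 3' UTRs. That of chin-1 reached a log2 fold of 4.50 (SE 0.90, edgeR adjusted p = 4.09e-06).

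The clusters of nhl-2 and lin-42 did not pass the filter on low counts. nhl-2 held 47, 10 and 31 reads in CLIP and 1, 2 and 1 in the inputs, a mean scaled log2 ratio of 2.77 ± 1.86 (SD, n = 3). The 2 lin-42 clusters stood at 2.47 ± 1.70 and 1.45 ± 1.96 (SD, n = 3), and the latter was the one cluster of the 8 genes in which CLIP and input libraries overlapped in RPM. The poly(A) polymerase gene gld-4 had a reproducible cluster outside the uniquely annotated list, with 113, 20 and 46 reads in CLIP and 1, 3 and 11 in the inputs. The remaining genes of the list had no cluster in either table, among them tra-2, fem-3, fog-1, fbf-1, par-1, par-2 and oma-1, named here after the tables were seen.

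The clusters most like those of the 4 genes were sought over the 6 libraries, as the smallest distance in log2 RPM (1 read added) between a gene's strongest cluster and all clusters of other genes. For the upstream tra-1 cluster they were the 3' UTR clusters of let-765, at a distance of 0.50, and of the mitochondrial chaperone gene hsp-6, at 0.61. The par-5 cluster was nearest to an exon cluster of F43E2.6, at 0.90, and to the 3' UTR cluster of the antizyme gene oaz-1, at 1.08. For lin-41 the nearest was the par-5 cluster itself, at 1.11, and then Y54E10A.6 at 1.30. By mean scaled log2 ratio the strongest gld-1 cluster was the downstream narrow one, at 2.15 against 2.09 for the 3' UTR cluster. With 5 reads added to each count this order reversed, at 1.16 against 1.63. The downstream narrow gld-1 cluster was nearest to 3' UTR clusters of itsn-1 at 0.66 and of the myosin light chain gene mlc-1 at 0.73. These distances describe read levels and their replicate pattern only.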

How the data were processed

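RNA was measured in 3 CLIP and 3 input libraries. Per the submitters' processing notes, fastp 0.21.0, STAR 2.7.10b and the builds ce11 or WBcel235 were used; the file captions name CLIPPER and a WormBase annotation. The authors deposited read counts per cluster and library, a p-value and a chi-square score per replicate, and 2 log2 columns. One deposited log2 column matched the unscaled ratio of reads plus 1 (within 0.001 in 736 of 736 clusters), the other, captioned as entropy, the ratio scaled for library totals (within 0.000498). The file captions do not say if coordinates start at 0 or 1.

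Library totals were recovered by fitting the Yates-corrected statistic to the scores (130 of 130, 76 of 76 and 116 of 116 within rounding), with standard errors of 0.0319%, 0.994% and 0.0821% for CLIP; it is not known if each equals the real depth. On simulated scores the largest error was 1.51%. edgeR 4.0.16 (filterByExpr, minimum count 10, no replicate block; tested on simulated counts) was the main test and DESeq2 1.42.0 an alternative, in R 4.3.3. Standard errors of folds derive from the F statistic. Counting intervals are exact binomial (Clopper-Pearson) at 95% and cover counting error only. Same-numbered CLIP and input libraries share a lysate, as the labels' protocols describe; deviations from group means correlated at 0.332, 0.113 and 0.00162. Named are all clusters of the 4 genes, every pathway gene with a listed cluster, except 1 not reported here, and the 2 nearest clusters per gene. Members and lists were chosen with earlier results of these data known. Planned comparisons of sequence were not run, as no genome was given.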

Additional observations from a re-analysis of the deposited data

How the results depend on the processing

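With the recovered totals, the 6 tested clusters of gld-1, lin-41, par-5 and tra-1 kept a fold above 0 in every fit that included them, the upstream narrow gld-1 cluster being outside the filter without CLIP replicate 1 or 3, and the replicate block changed no call: 6 member clusters and 385 listed clusters were called higher in CLIP with it, as without it. Member clusters called higher numbered 4 to 7 when single libraries were left out. The lowest count, 4 of 7 tested, came without input replicate 1, where 530 of 635 listed clusters tested were called higher. With TMM or DESeq2 size factors, from edgeR and DESeq2 respectively, 0 member clusters were called higher. At these scalings 4 and 2 member clusters were called lower, against 42 of 389 and 33 of 361 listed clusters. With single libraries left out, listed clusters called higher ran from 342 of 358 tested without CLIP replicate 1 to 605 of 635 without input replicate 2. They numbered 629 of 636 without the filter and with DESeq2 on the same totals, because more clusters then entered the test. With TMM and DESeq2 size factors they numbered 37 of 389 and 68 of 361. Folds turned below 0 with TMM at -2.56 and -2.08 for gld-1, -1.48 for lin-41, -1.33 for par-5 and -0.062 for the downstream tra-1 cluster. With DESeq2 size factors they did so at -2.01 and -1.53 for gld-1, -0.91 for lin-41 and -0.78 for par-5. Both scalings centre the listed clusters near 0 by construction. The median over the 7 clusters of the mean scaled log2 ratio, 2.73, ran from 1.86 to 3.54 with single replicates left out. Only 3 pathway genes, tra-1 and chin-1 among them, had a listed cluster with p under 0.05 in all 3 replicates, against 8 with any listed cluster. Input counts of 1 to 9 per library limit every ratio, and a deposited count of 1 may stand for 0.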
